A study of Mus musculus with 4 samples.

Results

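The genes described here are 32 members of the complement, coagulation and fibrinolysis systems, measured in macrophages and osteoclasts grown from the bone marrow of wild-type and LysM-St18flox mice. They comprise 16 complement genes and 16 coagulation and fibrinolysis genes, and were found on the arrays through the RefSeq accession of their probes. They were chosen by name with earlier results of these data known, so their counts beside all genes are descriptive. All 32 had a probe, among 22903 genes with a value in all. Signal was well above background on at least 1 array for 15 complement and 14 coagulation genes, and on all 4 arrays for 13 and 11. Cfd, the complement factor D protease also called adipsin, F2rl1, which encodes protease-activated receptor 2, and Plat, which encodes tissue plasminogen activator, were not well above background on any array. Total RNA of each of 4 groups was hybridised to 1 one-colour array. Wild-type macrophages were marrow cells cultured with 25 ng/ml of the macrophage growth factor M-CSF for 4 days. Osteoclasts are the multinucleated cells that resorb bone, and the wild-type ones were such macrophages given 25 ng/ml M-CSF together with 50 ng/ml RANKL, the cytokine of osteoclast formation, for 3 further days. LysM-St18flox macrophages and LysM-St18flox osteoclasts were made in the same way, and all cells grew in RPMI1640 with 10% serum. By convention, the name LysM-St18flox stands for a loxP-flanked St18 gene, which encodes a zinc finger transcription factor, with Cre recombinase under the lysozyme M locus, which is active in myeloid cells. A control with Cre alone or with the loxP-flanked gene alone was not analysed here, and the sources used here do not give the number, sex or pooling of the mice. RANKL and time in culture changed together between the cell types.

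Complement is a set of plasma and surface proteins that tag microbes and dying cells. In the classical pathway, C1q binds its target and its partner proteases C1r and C1s cut C4 and C2, whereas the alternative pathway runs through factors B and D and is held on surfaces by properdin. Both lead to cleavage of C3 and C5, whose small fragments attract leukocytes through receptors on myeloid cells. Coagulation is started by tissue factor, which binds factor VII and activates factor X, and the thrombin formed in turn makes fibrin and signals to cells through protease-activated receptors. Fibrin is crosslinked by factor XIII and dissolved by plasmin, which is formed by plasminogen activators. Macrophages are a known source of C1q, of factor XIII-A and of urokinase.

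The promoters of 4 members are printed, F2r and F3 from the genes with more signal in osteoclasts, and C1qb and C1qc from those with less. F13a1 had the lowest difference of the members and is not printed. Each window holds the 250 bases upstream of the annotated start, taken from RefSeq (GRCm38.p6) and written 5′ to 3′ on the strand of the gene. The windows are chr13:95618467-95618716 (minus strand) for F2r, chr3:121723287-121723536 (plus strand) for F3, chr4:136886201-136886450 (minus strand) for C1qb and chr4:136892915-136893164 (minus strand) for C1qc. Capitals mark matches, on either strand, to TGANTCA, the motif of the AP-1 family that includes Fos and Jun, in F2r and F3, and to GAGGAA, a core motif of the myeloid factor PU.1, in C1qb and C1qc.
F2r: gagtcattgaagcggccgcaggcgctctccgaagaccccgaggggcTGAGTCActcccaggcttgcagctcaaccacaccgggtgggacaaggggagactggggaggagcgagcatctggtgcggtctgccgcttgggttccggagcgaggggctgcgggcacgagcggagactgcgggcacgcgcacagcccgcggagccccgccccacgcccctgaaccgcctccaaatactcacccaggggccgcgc
F3: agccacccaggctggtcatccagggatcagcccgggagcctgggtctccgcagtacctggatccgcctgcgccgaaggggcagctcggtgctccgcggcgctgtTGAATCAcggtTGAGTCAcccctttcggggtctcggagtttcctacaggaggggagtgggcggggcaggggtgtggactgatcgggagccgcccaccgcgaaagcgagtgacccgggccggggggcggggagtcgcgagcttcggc
C1qb: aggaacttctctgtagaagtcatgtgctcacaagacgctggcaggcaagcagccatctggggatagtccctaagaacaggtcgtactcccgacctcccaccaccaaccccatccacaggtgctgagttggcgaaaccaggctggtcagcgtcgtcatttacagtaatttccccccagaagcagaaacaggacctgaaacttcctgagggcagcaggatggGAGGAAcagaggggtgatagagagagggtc
C1qc: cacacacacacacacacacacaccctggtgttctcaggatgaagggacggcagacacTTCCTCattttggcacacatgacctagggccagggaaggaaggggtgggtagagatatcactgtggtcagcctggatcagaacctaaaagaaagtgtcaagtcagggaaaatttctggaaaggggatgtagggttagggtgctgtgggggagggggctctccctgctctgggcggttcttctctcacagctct
The F2r window held 1 match to TGANTCA, which began 204 bases before the start. In the F3 window there were 2 matches, 146 and 135 bases before the start. C1qb had its GAGGAA match 30 bases before the start, and C1qc had one on the opposite strand, 193 bases before it.

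Promoter windows were found for 23 members, with 29 windows in all, since a gene can have several starts. TGANTCA was present in 1 of 14 complement windows (C3ar1) and in 6 of 15 coagulation windows (F2r, F2rl2, F3, Plaur, Procr and Tfpi2), against 6.75% of all 32851 windows of this length. GAGGAA was present in 4 of 14 complement windows (C1qb, C1qc, C5ar2 and Cd59a) and 6 of 15 coagulation windows (F13a1, F2rl2, F7, Plaur, Tfpi and Tfpi2), against 23.3% of all windows. No match to one motif overlapped a match to the other in any window counted. Procr and F2rl2 carried a TGANTCA match and had less signal in osteoclasts than in macrophages of both genotypes, so the genes with this match did not share a direction. Nor did those with GAGGAA, since Cd59a had more signal in osteoclasts of both genotypes and C1qb and C1qc had less.

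Of the 59305 spots on each array, which stand for 56605 probes, 59.0% to 63.2% were well above background, and none was saturated. Levels are given as log2 of the processed signal minus the 75th percentile of the array, so that a level of 0 is the signal of a bright probe. Levels of different genes are not compared, because probes differ in brightness. With 1 array a group there is no test and no p-value. The repeated spots of a probe gave an SD of 0.045 to 0.057 for a log2 difference between arrays, which is error within an array and not spread between cultures. A difference of at least 2-fold, which is 1 on the log2 scale, is used as a size criterion. Where 1 of the arrays was not well above background, the other was set against the lowest well-measured signal of the dim array, or the dim signal itself where higher, and the difference is a bound ("at least"). The brighter probe of St18 had levels of 0.30 in wild-type and -1.52 in LysM-St18flox macrophages, and of 1.55 and 1.12 in osteoclasts. The other St18 probe passed background in 1 group, the LysM-St18flox osteoclasts, at -4.60 against -5.66 in the wild type. The sources used here do not say whether either probe lies in the loxP-flanked part.

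The arrays carried the markers of the labelled cell types. All 8 macrophage markers were detected well above background throughout, and their summed level, on the linear scale, was 803.4 and 477.5 in wild-type macrophages and osteoclasts, and 783.8 and 521.3 in those of LysM-St18flox mice. The summed level of 10 osteoclast markers was 12.95, 767.6, 11.1 and 988.5 in the same order, and all 10 were higher in osteoclasts in both genotypes. Between the osteoclast arrays, 8 of these 10 markers were at least 2-fold higher in LysM-St18flox cells. In bulk RNA, fewer cells of a type and less RNA per cell cannot be told apart. The 4 hepatocyte markers were not well above background on any array, nor were the endothelial markers Tek, Tie1, Emcn and Cldn5, the adipocyte markers Adipoq, Plin1 and Cidec, or the megakaryocyte and platelet markers Gp9, Gp1ba, Gp5 and Itga2b. Of the 7 adipocyte markers the other 4, Fabp4, Lpl, Lep and Pparg, were well above background on all arrays, with a summed level of 115 to 162 over the list, and so were the endothelial markers Vwf and Kdr.

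**Figure D1:**
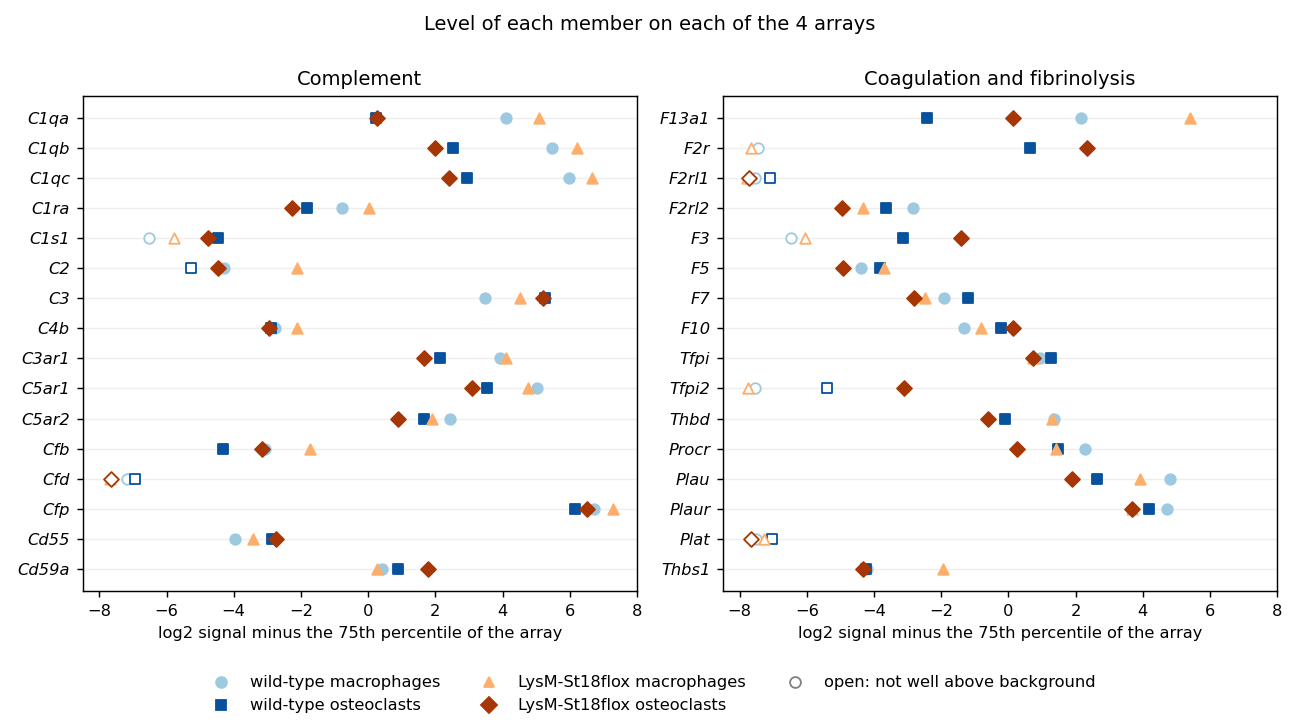
Level of each of the 32 members on the 4 arrays, as log2 signal minus the 75th percentile of the array (x axis), with complement genes on the left and coagulation and fibrinolysis genes on the right. Each symbol is 1 array, and open symbols are not well above background. The osteoclast symbols of C1qa lie near 0 while its macrophage symbols lie at 4.10 and 5.09. F2r is open in both macrophage groups, at -7.47 and -7.65, and lies at 0.64 and 2.35 in osteoclasts.

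The first question was how osteoclasts differed from macrophages in each genotype. Most measured complement genes had less signal in osteoclasts, whereas the coagulation genes past 2-fold lay in both directions. In wild-type cells, 7 of 15 measured complement members were at least 2-fold lower in osteoclasts and 2 were higher, beside 7.32% of all measured genes lower and 5.7% higher (13% in either direction). The complement median was -0.77, against 0.0015 over all genes. For coagulation and fibrinolysis, 3 of 13 measured members were higher and 3 lower, with a median of -0.054. In LysM-St18flox cells, 9 of 15 complement members were lower and 1 higher, and 6 of 14 coagulation members were lower and 3 higher, beside 12.2% of all measured genes lower and 11% higher (23.2% in either direction). The medians were -1.43 for complement, -0.47 for coagulation and -0.019 for all genes. With arrays centred on their median, 4 coagulation members were higher and 5 lower in LysM-St18flox osteoclasts, and over all genes 2207 were higher and 1522 lower, against 1712 and 1897. The complement median stayed below 0 in both genotypes under all 8 alternative settings, while the wild-type coagulation median ran from -0.57 in the authors' deposited table to 0.39 with no filter on dim probes, and was -0.53 both with the filter on both arrays and with the median over probes. F2r, F3 and Tfpi2 entered only through osteoclast arrays. With genes well above background on both arrays, 1 coagulation member was higher and 3 were lower in wild-type osteoclasts, and 0 were higher and 6 lower in LysM-St18flox osteoclasts, and the authors' deposited table gave the same counts. In both genotypes, 7 of 15 complement members were at least 2-fold lower and none was higher, and of 13 coagulation members 3 were lower and 2 higher, beside 6.4% of all genes lower in both and 4.62% higher in both. The comparisons within a genotype used separate arrays, but the genotype comparisons described further on use the same 4 arrays again.

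**Figure D2:**
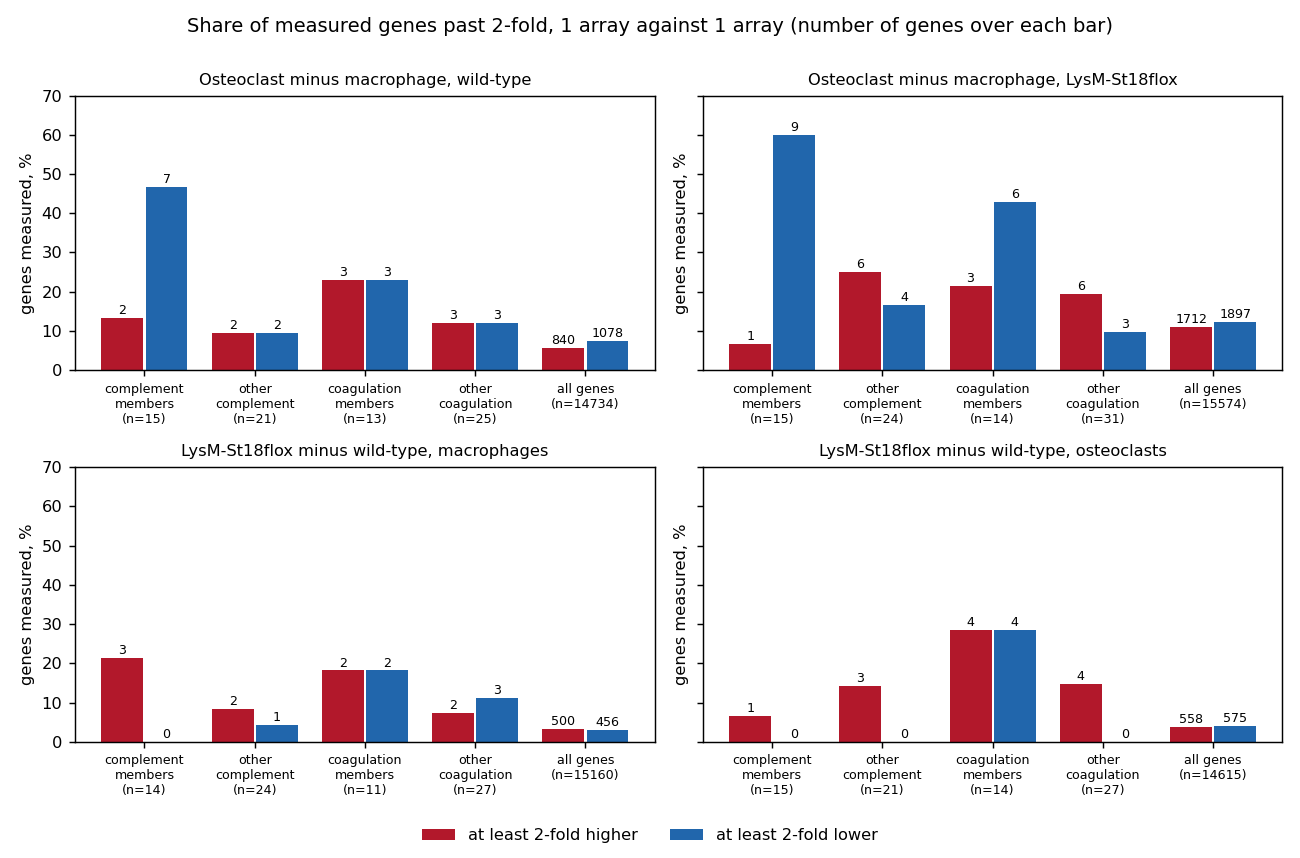
Share of measured genes (y axis, %) that were at least 2-fold higher (red) or lower (blue) in each of the 4 comparisons, for the members, for the other genes of each pathway and for all genes. The number over a bar is the count of genes, n is the number measured, and there are no error bars because each group has 1 array. In the osteoclast comparisons the blue bar of the complement members stands for 7 and 9 of 15 genes.

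The 3 chains of C1q, which together form the recognition molecule of the classical pathway, were far lower in osteoclasts. C1qa had a level of 4.10 in wild-type macrophages and 0.25 in wild-type osteoclasts, and of 5.09 and 0.28 in the LysM-St18flox cells. The osteoclast arrays were both low and close to each other, 14.4-fold below macrophages in wild-type and 28.1-fold below in LysM-St18flox cells. C1qb was at 5.46 and 2.53 in wild-type macrophages and osteoclasts, and at 6.20 and 1.995 in the LysM-St18flox cells, which is 7.60-fold and 18.5-fold lower in osteoclasts. The C1qc levels were 5.97 and 2.95, and 6.68 and 2.41, with osteoclasts 8.12-fold and 19.3-fold lower. Both macrophage arrays thus lay above both osteoclast arrays for all 3 chains, whose genes are direct neighbours on mouse chromosome 4. C1ra, the protease that C1q activates first, was at -0.78 and -1.81 in wild-type macrophages and osteoclasts and at 0.04 and -2.27 in LysM-St18flox cells, 2.04-fold and 4.96-fold lower in osteoclasts. Its neighbour C1s1, which encodes the next protease of the complex, was well above background in osteoclasts only, at -4.46 in wild-type and -4.75 in LysM-St18flox cells. The C1s1 difference from macrophages was at least 0.86 and at least 0.81 on the log2 scale, so C1s1 was not lower with C1ra. Resident macrophages are a main source of C1q, and the 8 macrophage markers had median differences of -0.95 and -1.41, with 3 and 5 of them at least 2-fold lower in osteoclasts, while none was higher. Their part in the C1q result was not tested.

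Downstream of C1q, C3 had more signal in osteoclasts, C2 had less, and C4b differed by less than 2-fold. C3, the central component on which all pathways converge, had levels of 3.47 and 5.27 in wild-type macrophages and osteoclasts, and of 4.52 and 5.21 in LysM-St18flox cells. The osteoclast arrays were the higher ones, by 3.48-fold in wild-type and 1.62-fold in LysM-St18flox cells. C4b, which supplies a subunit of the classical C3-cleaving enzyme, was at -2.77 and -2.89 in wild-type macrophages and osteoclasts and at -2.10 and -2.94 in LysM-St18flox cells, differences under 2-fold in both genotypes (-0.12 and -0.83). C2, the protease subunit of that enzyme, was at -2.11 and -4.45 in LysM-St18flox macrophages and osteoclasts, whereas in wild-type cells it was at -4.30 in macrophages and not well above background in osteoclasts. C2 was lower in osteoclasts by at least 1.51-fold in the wild type and by 5.08-fold in LysM-St18flox cells.

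In the alternative pathway, Cfb was lower in osteoclasts and Cfp differed by less than 2-fold. Cfb, the protease subunit that corresponds to C2, was at -3.07 and -4.31 in wild-type macrophages and osteoclasts and at -1.74 and -3.17 in LysM-St18flox cells, 2.37-fold and 2.70-fold lower. Cfb and C2 are adjacent on chromosome 17. Cfp encodes properdin, which stabilises the alternative C3-cleaving enzyme, and its levels were 6.73, 6.16, 7.28 and 6.50 in wild-type macrophages, wild-type osteoclasts, LysM-St18flox macrophages and LysM-St18flox osteoclasts. The Cfp difference was 1.49-fold and 1.71-fold, and a second Cfp probe was past 2-fold in LysM-St18flox cells (-1.07). Liver is the main source of several of these proteins in plasma, and the hepatocyte markers given above were not well above background. Which cells gave the complement signal was not tested.

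All 3 measured receptors for the fragments C3a and C5a had less signal in osteoclasts. C3ar1, the C3a receptor, was at 3.92 and 2.14 in wild-type macrophages and osteoclasts and at 4.11 and 1.66 in LysM-St18flox cells, 3.45-fold and 5.46-fold lower in osteoclasts. C5ar1, the C5a receptor that signals through G proteins, was at 5.01 and 3.53, and at 4.76 and 3.09, 2.80-fold and 3.18-fold lower. The second C5a receptor, encoded by the neighbouring gene C5ar2, was at 2.44 and 1.67 and at 1.90 and 0.89, which is 1.70-fold and 2.01-fold lower. The C5ar2 value in LysM-St18flox cells sat at the size criterion and was -0.84 when arrays were centred on their median. Neutrophils carry these receptors and properdin as well. Of 11 neutrophil markers with a probe, 8 to 11 were well above background per array. Their summed levels were 33.2 and 14.3 in wild-type macrophages and osteoclasts and 40.5 and 9.92 in LysM-St18flox cells. In macrophages most of the sum came from Mmp8, at 4.33 in wild-type and 4.66 in LysM-St18flox cells, against 2.25 and 1.21 in osteoclasts. The median marker difference was -0.34 in wild-type cells, with 1 of 9 measured markers at least 2-fold higher and 1 lower. In LysM-St18flox cells it was -0.95, with 0 of 11 higher and 5 lower. The part of neutrophil RNA in the receptor values was not tested.

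Regulators that protect the cell's own surface did not share the direction of C1q. Cd55, which speeds the decay of the C3-cleaving enzymes, was at -3.96 and -2.86 in wild-type macrophages and osteoclasts and at -3.42 and -2.73 in LysM-St18flox cells, 2.15-fold and 1.61-fold higher in osteoclasts. Cd59a, which blocks assembly of the membrane attack complex, was at 0.41 and 0.89, and at 0.27 and 1.78, which is 1.39-fold and 2.85-fold higher. Cd55 was thus past the size criterion in wild-type cells and Cd59a in LysM-St18flox cells. C1ra, C1s1, C4b and Cd59a each have a closely similar paralogue in the mouse (C1rb, C1s2, C4a and Cd59b), and whether their probes also bind it was not tested.

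Other genes of the complement system, from a list of 40, showed no such shift. In wild-type cells 2 of 21 measured were higher and 2 lower in osteoclasts, with a median of -0.091, and in LysM-St18flox cells 6 of 24 were higher and 4 lower, with a median of -0.013. Cd93, a surface protein once described as a C1q receptor, was lower in osteoclasts (-1.31 and -2.43). Higher in LysM-St18flox osteoclasts were C1qbp, a binding partner of C1q (1.59), Itgax, a subunit of complement receptor 4 (2.53), and Susd4, a complement inhibitor (3.33). In wild-type cells these 3 had differences of 0.89, 0.97 and 1.47.

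Among coagulation genes, the starter of the cascade and a thrombin receptor had more signal in osteoclasts. F2r encodes PAR1, the main thrombin receptor of many cells, and its probe was not well above background in either macrophage group. In osteoclasts F2r stood at 0.64 in the wild type and at 2.35 in LysM-St18flox cells, at least 62.3-fold and at least 241-fold above macrophages. F3, which encodes tissue factor, was likewise not well above background in macrophages and was at -3.13 and -1.43 in wild-type and LysM-St18flox osteoclasts, at least 4.56-fold and at least 17.6-fold higher. These are the genes whose promoter windows hold the TGANTCA matches printed above. F2rl2 encodes PAR3, a cofactor for thrombin on other receptors, and lies on chromosome 13 with F2r, with 1 protein-coding gene between them. The F2rl2 levels were -2.86, -3.64, -4.34 and -4.95 in wild-type macrophages, wild-type osteoclasts, LysM-St18flox macrophages and LysM-St18flox osteoclasts, differences of -0.79 and -0.61 between the cell types. F2r and F2rl2 thus differed in direction.

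The circulating factors of the cascade were less uniform. F10, which encodes factor X, was at -1.32 and -0.23 in wild-type macrophages and osteoclasts and at -0.81 and 0.13 in LysM-St18flox cells, 2.13-fold and 1.92-fold higher in osteoclasts. Its neighbour on chromosome 8, F7, encodes factor VII, the partner of tissue factor, and was at -1.91 and -1.20 in wild-type cells and at -2.48 and -2.82 in LysM-St18flox cells. The F7 differences of 0.71 and -0.34 were under 2-fold and of opposite sign. F5, the cofactor of factor X, was at -4.39 and -3.81 in wild-type macrophages and osteoclasts and at -3.69 and -4.93 in LysM-St18flox cells, a difference of 0.58 in the former and -1.24 in the latter. Both F5 and F7 had their lowest level in LysM-St18flox osteoclasts.

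Of the inhibitors of coagulation, Thbd and Procr, both on the cell surface, had less signal in osteoclasts. Thbd, thrombomodulin, which turns thrombin towards protein C, was at 1.36 and -0.12 in wild-type macrophages and osteoclasts and at 1.29 and -0.62 in LysM-St18flox cells, 2.78-fold and 3.75-fold lower in osteoclasts. Procr, the receptor that presents protein C to that complex, was at 2.28 and 1.48 and at 1.42 and 0.26, 1.75-fold and 2.23-fold lower. Both genes are typical of endothelium. Of 10 endothelial markers, 5 or 6 were well above background per array. Their summed levels were 6.74 and 7.35 in wild-type and LysM-St18flox macrophages and 6.21 and 6.26 in osteoclasts. Most of each sum came from Vwf (2.02, 2.52, 2.18 and 2.31 in the same order). Of 6 measured in wild-type cells, 1 was at least 2-fold lower in osteoclasts (Kdr, -1.11) and 0 higher, with a median of -0.24. In LysM-St18flox cells 1 of 6 was higher and 0 lower, with a median of -0.32. The part of these markers in the result was not tested. Tfpi, the inhibitor of tissue factor and factor X, was at 0.94 and 1.26 in wild-type cells and at 0.73 and 0.74 in LysM-St18flox cells, differences of 0.32 and 0.0017. Other Tfpi probes gave -0.031 in wild-type cells and -0.82 and -0.086 in LysM-St18flox cells, so no direction is settled for Tfpi. Tfpi2, a related protease inhibitor, was well above background on 1 array only, that of LysM-St18flox osteoclasts, at -3.11, which is at least 5.47-fold above the macrophages of that genotype.

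In fibrinolysis, Plau had less signal in osteoclasts and its receptor differed by less than 2-fold. Plau, urokinase, which turns plasminogen into plasmin, was at 4.81 and 2.63 in wild-type macrophages and osteoclasts and at 3.93 and 1.89 in LysM-St18flox cells, 4.51-fold and 4.10-fold lower in osteoclasts. A second, dimmer Plau probe gave differences of -2.26 and -2.48. Plaur, which holds urokinase on the cell surface, was at 4.72 and 4.19 and at 3.68 and 3.67, differences of -0.53 and -0.012. Macrophages of both genotypes thus had the higher Plau level, while Plaur separated the genotypes more than the cell types.

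F13a1 was far lower in osteoclasts of both genotypes. F13a1 encodes the A chain of factor XIII, which crosslinks fibrin, and was at 2.15 in wild-type macrophages and -2.44 in wild-type osteoclasts, and at 5.40 and 0.14 in LysM-St18flox cells. It was 24.1-fold and 38.4-fold lower in osteoclasts. A second F13a1 probe was well above background in macrophages only. Megakaryocytes and platelets also carry factor XIII-A. The summed level of 10 megakaryocyte and platelet markers was 196.3 and 25.3 in wild-type macrophages and osteoclasts and 212.9 and 15.5 in LysM-St18flox cells, mostly from Pf4 (7.60, 4.58, 7.71 and 3.87), and their defining markers Gp9, Gp1ba, Gp5 and Itga2b were not well above background. The part of these cells in the F13a1 result was not tested. Thbs1, thrombospondin, a matrix glycoprotein first found in platelets, was at -4.20 and -4.25 in wild-type macrophages and osteoclasts and at -1.94 and -4.33 in LysM-St18flox cells. The LysM-St18flox macrophage array stood above the other 3, which lay close together, so that Thbs1 was 5.22-fold lower in osteoclasts of that genotype and differed by -0.054 in wild-type cells.

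From a list of 45 other coagulation and fibrinolysis genes, 3 of 25 measured were higher and 3 lower in wild-type osteoclasts (median 0.16), and 6 of 31 were higher and 3 lower in LysM-St18flox osteoclasts (median 0.059). Serpind1, heparin cofactor II, an inhibitor of thrombin, was not well above background in macrophages and differed by at least 5.49 in wild-type and at least 8.36 in LysM-St18flox cells on the log2 scale. Serpine2, protease nexin 1, another inhibitor of thrombin and urokinase, was higher in osteoclasts, with levels of 1.33 and 2.23 in wild-type macrophages and osteoclasts and of -0.65 and 4.34 in LysM-St18flox cells. Lower in osteoclasts were the vitamin K-dependent proteins Pros1, the secreted anticoagulant protein S (-1.76 and -2.69), and Gas6 (-3.36 and -4.02) and the endocytic receptor Lrp1 (-1.14 and -1.34). Vldlr, of the same receptor family, was higher in wild-type osteoclasts (1.49) with a difference of 0.36 in LysM-St18flox cells.

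The size of the shift depended on the background correction for dim genes. With normexp correction, which models the local background, the wild-type differences of C1ra (-0.87), Cfb (-0.67), Cd55 (0.53), F3 (0.85) and F10 (0.82) and the LysM-St18flox difference of F5 (-0.53) were under 2-fold. The LysM-St18flox difference of Procr was -0.99 when arrays were centred on their median.

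**Figure D3:**
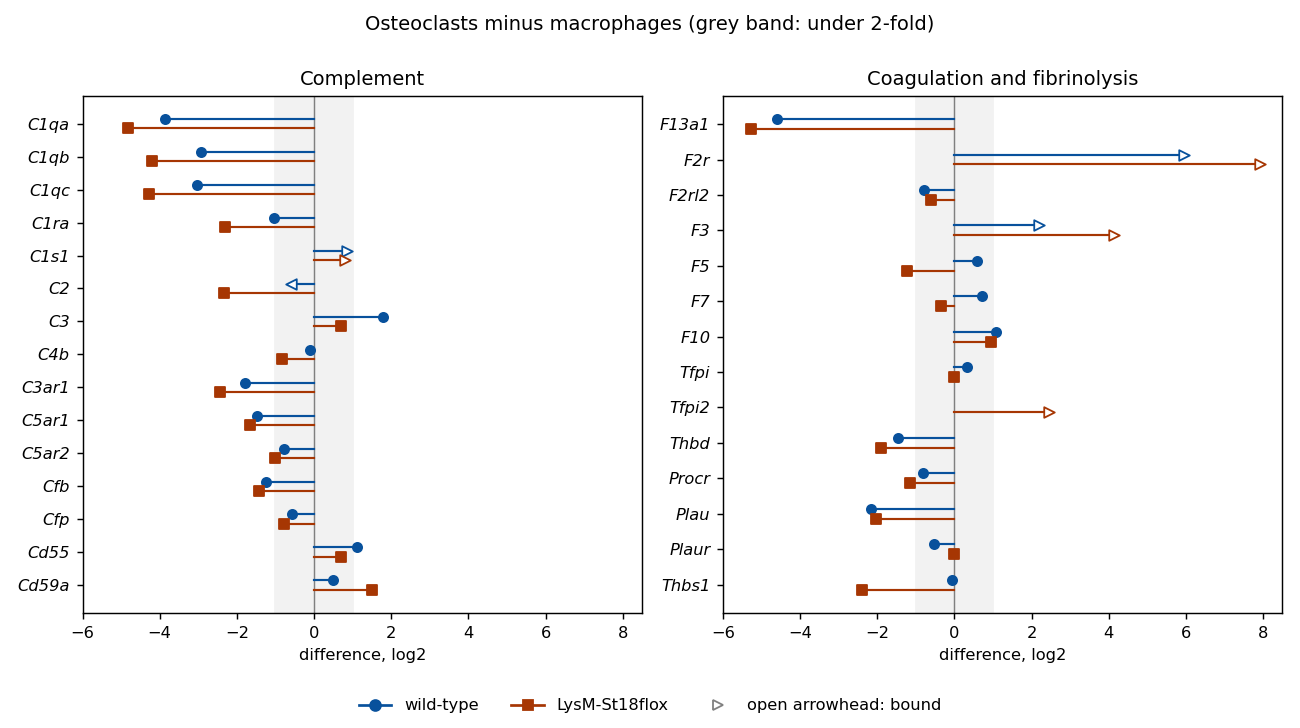
Osteoclast minus macrophage difference (x axis, log2) of each measured member in wild-type (blue) and LysM-St18flox (brown) cells, with differences under 2-fold inside the grey band. Open arrowheads are bounds, and each point compares 1 array with 1 array. Of 15 complement members, 7 wild-type and 9 LysM-St18flox points lie left of the band, while F2r and F3 lie far right and F13a1 far left among the coagulation members.

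The second question was how LysM-St18flox cells differed from wild-type cells. In macrophages, most complement genes had more signal in LysM-St18flox cells, and F13a1 and Thbs1 stood out among the coagulation genes. Of 14 measured complement members, 3 were at least 2-fold higher in LysM-St18flox macrophages and none was lower, beside 3.3% of all measured genes higher and 3.01% lower (6.31% in either direction). The complement median was 0.68, against -0.020 over all genes, and it lay above 0 under all 8 alternatives. Of 11 coagulation members 2 were higher and 2 lower, with a median of -0.21.

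C2 was 4.57-fold, Cfb 2.51-fold and C3 2.06-fold higher in macrophages of LysM-St18flox mice than of wild-type mice. All 3 supply the enzymes that cleave C3 or are their substrate. C1qa had a difference of 0.99, just under 2-fold, C1ra of 0.82, C1qb of 0.75, C1qc of 0.70, C4b of 0.67, Cfp of 0.55 and Cd55 of 0.54. The receptor genes were not part of this shift, with differences of 0.19 for C3ar1, -0.25 for C5ar1 and -0.54 for C5ar2, nor was Cd59a (-0.14). Among coagulation genes, F13a1 was 9.49-fold and Thbs1 4.76-fold higher. Lower were F2rl2, by 2.80-fold, and Plaur, by 2.06-fold. Plau (-0.88) and Procr (-0.87) came close to 2-fold, and a second Plau probe was at -1.39. F5 (0.70), F10 (0.51), F7 (-0.57), Tfpi (-0.21) and Thbd (-0.065) were under 2-fold, and F5 was at -0.16 with normexp correction. F2r, F3, Tfpi2 and C1s1 were not well above background in macrophages of either genotype.

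Beside these, 2 of 24 other complement genes were higher and 1 lower, and 2 of 27 other coagulation genes were higher and 3 lower. Serpine2 was lower in LysM-St18flox macrophages (-1.99). With normexp correction none of the complement members was past 2-fold in this comparison (C2 0.90, C3 0.99 and Cfb 0.74), and the Plaur difference was -0.98 with quantile normalisation and in the log2 values of the authors' deposited table.

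In osteoclasts, more coagulation than complement members were past 2-fold between the genotypes, but the coagulation count depended on the settings. Of 14 measured coagulation members 4 were at least 2-fold higher and 4 lower in LysM-St18flox osteoclasts. Over all measured genes, 3.82% were higher and 3.93% lower (7.75% in either direction). Tfpi2 was among the higher ones through the LysM-St18flox array alone. Requiring both arrays to be well above background left 13 coagulation members, 3 higher and 4 lower. The authors' deposited log2 values held 11 of them, with 1 higher and 2 lower. With arrays centred on their median, 4 coagulation members were higher and 2 lower, and over all genes 1000 were higher and 314 lower, against 558 and 575. Of 15 complement members 1 was higher and none lower. The medians were -0.51 for coagulation, -0.059 for complement and -0.0037 for all genes, and the complement median was 0.19 when arrays were centred on their median and 0.0036 with the median over the probes of a gene.

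F13a1 was 5.96-fold higher in LysM-St18flox osteoclasts, F2r 3.26-fold, F3 3.26-fold and Tfpi2 at least 3.43-fold. F13a1, F2rl2 and Cfb were past 2-fold in both cell types in the same direction. F2r, F3 and Tfpi2 had their highest level of the 4 arrays in LysM-St18flox osteoclasts, where 8 of 10 osteoclast markers were also at least 2-fold higher than in wild-type osteoclasts, and the part of these markers in the result was not tested. Lower in LysM-St18flox osteoclasts were F7 by 3.09-fold, F2rl2 by 2.47-fold, Procr by 2.32-fold and F5 (-1.12). The starter tissue factor and its partner factor VII therefore differed in opposite directions. Plau (-0.74), Tfpi (-0.53), Plaur (-0.52), Thbd (-0.50), F10 (0.36) and Thbs1 (-0.079) were under 2-fold, though a second Plau probe was at -1.61.

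Cfb was the complement member past 2-fold, 2.21-fold higher in LysM-St18flox osteoclasts. Cd59a had a difference of 0.89, C2 of at least 0.44, Cfp of 0.34 and Cd55 of 0.13. C5ar2 (-0.78), C1qc (-0.54), C1qb (-0.54), C3ar1 (-0.47), C1ra (-0.46), C5ar1 (-0.44) and C1s1 (-0.30) were lower by less than 2-fold. C3 (-0.059), C4b (-0.048) and C1qa (0.028) were nearly equal on the arrays, and for C3 and C4b the sign was the opposite when arrays were centred on their median (0.19 and 0.20). A second C3 probe was at 0.066, and other Cd55 probes were at -0.11 and -0.067. None of 21 other complement genes was lower and 3 were higher, among them Susd4 (1.18), and of 27 other coagulation genes 4 were higher, among them Serpind1 (2.63) and Serpine2 (2.11), and none was lower.

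Several of these osteoclast differences were tied to the settings. With normexp correction Cfb (0.34), Tfpi2 (0.72), F2rl2 (-0.79) and F5 (-0.73) were under 2-fold. Centring on the median left F5 (-0.88) and Procr (-0.97) under 2-fold, and the median over probes left Cfb (0.72) and F13a1 (0.97) so. The second probe of Cfb and that of F13a1 were not well above background in osteoclasts of either genotype.

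**Figure D4:**
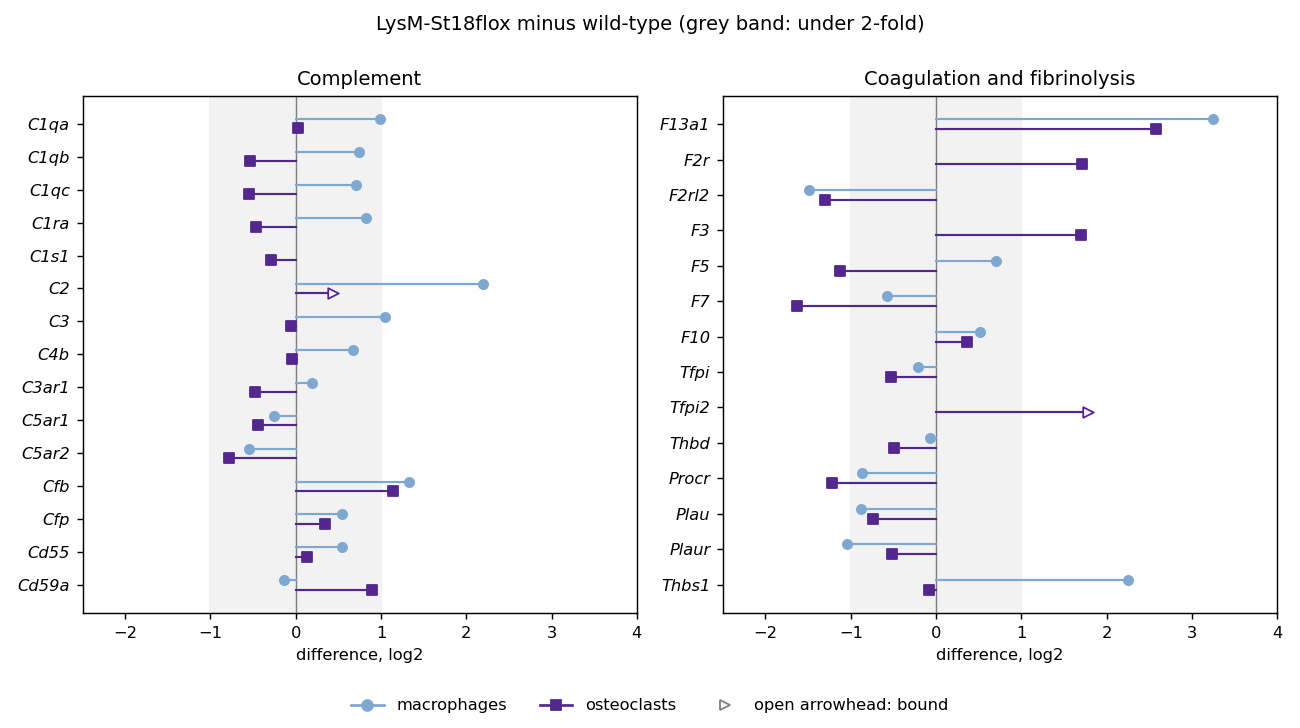
LysM-St18flox minus wild-type difference (x axis, log2) of each measured member in macrophages (light blue circles) and osteoclasts (purple squares), with differences under 2-fold inside the grey band and open arrowheads for bounds. Each point compares 1 array with 1 array. In macrophages C2, C3 and Cfb lie right of the band and no complement member lies left of it, while in osteoclasts 4 coagulation members lie on each side.

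The difference between osteoclasts and macrophages was further compared between the genotypes, as the LysM-St18flox difference minus the wild-type difference. Among 13 complement members well above background on all arrays, 12 had a value below 0, beside 6228 of 13671 genes. Their median was -0.66, against 0.042 over all genes. At least 2-fold were C1ra (-1.28), C1qb (-1.28), C1qc (-1.25) and C3 (-1.10) on the lower side and Cd59a (1.03) on the higher side, beside 4.7% of all genes lower and 3.22% higher (7.91% in either direction). C1qa was at -0.96, C4b at -0.72, C3ar1 at -0.66 and Cd55 at -0.41. Cfp (-0.21), C5ar2 (-0.24), C5ar1 (-0.19) and Cfb (-0.19) were closest to 0, and of these C5ar1 (0.048), Cfb (0.047) and Cfp (0.028) were above 0 when arrays were centred on their median. For C1q and C1ra, LysM-St18flox cells thus had the higher macrophage level together with a lower or equal osteoclast level.

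Among 11 coagulation members 3 were at least 2-fold lower, namely Thbs1 (-2.33), F5 (-1.82) and F7 (-1.05), and none was higher, with a median of -0.35. Plau (0.14) had a large difference between the cell types that was under 2-fold apart between the genotypes. F13a1 was at -0.67, but past 2-fold at -1.16 with normexp correction and at -2.16 with the median over probes. That median takes in a second F13a1 probe that was not well above background in osteoclasts. Plaur (0.52), Thbd (-0.43), Procr (-0.35), Tfpi (-0.32), F2rl2 (0.18) and F10 (-0.15) were also under 2-fold. The values of C3 (-0.87) and F7 (-0.82) were under 2-fold when arrays were centred on their median, and that of Cd59a (0.99) with quantile normalisation. F5 was at -0.57 with normexp correction. These values rest on all 4 arrays, 1 per group, and no spread between cultures can be set beside them.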

How the data were processed

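RNA of 4 groups, 1 array each, was scanned and quantified in Agilent's Feature Extraction software, version 11.0.1.1 in the submitters' processing notes. Scanner files as deposited hold the processed intensity of each spot after background subtraction and detrending, not scaled between arrays, together with spot and local background intensity and flags, per the file headers. The authors also deposited log2 values for 30909 probes, with a median of 9.39 in each column; from the values, the columns are quantile-normalised levels. The sources used here do not say how this table was made.

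From the scanner files, log2 of the processed signal was averaged over the spots of a probe and the 75th percentile of the array was subtracted. Control spots and 80 to 126 outlying spots per array were left out. RefSeq accessions, looked up in a gene table of assembly GRCm38.p6, named 32994 of 35886 probes with such an accession, or 58.3% of all probes. No other coordinates are given, since the arrays were designed on an older build. The brightest probe on average stood for a gene, and 11 of the 32 members had several probes. Another probe of a member is given where it lies on the other side of 0 or of 2-fold with both arrays well above background. A gene entered a comparison when well above background on at least 1 of its 2 arrays, and genes whose bound would be under 1-fold were left out. Other pathway genes are named where past 2-fold with an array at or above the 75th percentile, at most 5 a direction; some genes that this rule names are not reported here.

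No test was possible with 1 array a group. Alternatives were normexp background correction (offset 50), centring on the median, the percentile over probes detected on all arrays, quantile normalisation, no filter, a filter on both arrays, the median over the probes of a gene, and the authors' deposited log2 values. The calculation was tested on simulated data. The members and lists were chosen with earlier results of these data known. Python 3.11.15, pandas 2.3.3, R 4.3.3 and limma 3.58.1 were used. The arrays lay on 1 slide.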

Additional observations from a re-analysis of the deposited data

Results flagged for a closer look

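The following members had differences of opposite sign in the 2 groups compared, at least 2-fold apart, with all 4 arrays well above background. With 1 array a group the difference between the groups was not tested. LysM-St18flox minus wild-type was 0.75 in macrophages and -0.54 in osteoclasts for C1qb, 0.70 and -0.54 for C1qc, 0.82 and -0.46 for C1ra, and 1.04 and -0.059 for C3. For Cd59a the genotype difference was -0.14 in macrophages and 0.89 in osteoclasts. For F5 it was 0.70 and -1.12, and for Thbs1 2.25 and -0.079. The osteoclast values of C3 and Thbs1 were 0.19 and 0.17 when arrays were centred on their median, so their sign is not settled. The macrophage value of F5 was -0.16 with normexp correction, the same sign as in osteoclasts, so the opposite signs of F5 are not settled either. Osteoclasts minus macrophages was 0.58 in wild-type and -1.24 in LysM-St18flox cells for F5, and 0.71 and -0.34 for F7.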

How the results depend on the processing

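No paired analysis was possible because each group has 1 array. No member value past 2-fold changed sign under the 8 alternatives. Of 1055 member values under these, 978 kept their direction and their side of 2-fold, 33 were no longer past 2-fold, 16 newly were, and 28 under 2-fold changed sign; 15 of the 33 came with normexp correction.

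The complement median for wild-type osteoclasts was -1.03 both with the filter on both arrays and in the authors' deposited table. The coagulation median was 0.39 with no filter in wild-type cells, and -1.15 (both arrays) and -1.01 (deposited table) in LysM-St18flox cells. With normexp correction no complement member was past 2-fold between the genotypes (0 in macrophages, 0 in osteoclasts); osteoclasts had 2 with median centring and 0 with the probe median, and complement medians of 0.19 and 0.0036. Coagulation members past 2-fold in that comparison were 5 with normexp correction and 3 in the deposited table.

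Over all genes, 2985 were past 2-fold in wild-type osteoclasts with no filter, against 1918. Between the genotypes, macrophages had 557 with normexp correction and 2097 with no filter, against 956, and osteoclasts 536, 2331 and, in the deposited table, 695, against 1133. Centring on the median moved the median probe by 0.17 in LysM-St18flox osteoclasts against macrophages and by 0.25 between the genotypes in osteoclasts, and normexp correction moved it by -0.11 between the genotypes in macrophages. In the former comparison 2207 genes were then higher and 1522 lower, against 1712 and 1897. Between the genotypes in osteoclasts there were 1000 higher and 314 lower with this centring, 646 and 393 with quantile normalisation and 432 and 263 in the deposited table, against 558 and 575. Signal over background limits C1s1, C2, F2r, F3 and Tfpi2, which are dim on at least 1 array.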
